A study of Homo sapiens with 3 samples.

Results

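The 7SK, 7SL, RNase P and MRP RNAs are long-lived structured RNAs made by RNA polymerase III, and each works inside a particle of RNA and protein. They were followed here through 6 genes: RN7SK (7SK RNA), RN7SL1 and RN7SL2 (7SL RNA), RPPH1 (the RNA of RNase P), RMRP (the RNA of RNase MRP) and BCYRN1 (BC200 RNA, a relative of 7SL). The rule for finding them uses positions and no measured value. A dsRNA region was counted as belonging to a gene when it overlapped, in either dsRNA library, a window set around that gene in the hg19 build. This gave 8 regions of 271645 in all: 4 genes had 1 region each, and RMRP and RPPH1 had 2 each. The lower region reached 2 (wild type) and 1 (knockdown) at RMRP, and 37 and 6 at RPPH1, so each gene is described by its highest region.

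There were 3 libraries, all from the HEK 293 line of human embryonic kidney. The first was DICER ChIP-seq of wild-type cells, with 119 peaks, and the other 2 were dsRNA sequencing of wild-type cells and of cells with a Dicer knockdown. The dsRNA was what T1 nuclease left of total RNA. The labels name no agent, clone or duration for the knockdown, and the level of DICER1 was not analysed here, so its loss was not checked. Which library is which was read from the sheet names alone (normal for wild type, induced for knockdown), and every direction below turns round if those names mean something else.

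T1 nuclease cuts single-stranded RNA after guanosine, so RNA that pairs with itself can remain after digestion as well as RNA paired with another strand. 7SK holds back the elongation factor P-TEFb together with HEXIM proteins. 7SL is the scaffold of the signal recognition particle, which brings ribosomes that make secreted proteins to the endoplasmic reticulum, and Alu repeats and BC200 descend from it. RNase P trims the leader of precursor tRNAs, and RNase MRP cuts precursor ribosomal RNA. The RNAs of RNase P and RNase MRP are related in structure and bind a largely common set of proteins. DICER cuts long dsRNA and the hairpin precursors of microRNAs into short RNAs.

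The measured value is the summit of a region, the whole-number height of read coverage at its highest point, as deposited and not normalized by library size. It is a height at 1 position and not a sum along the RNA, so it does not grow with gene length by its construction. With 1 library a group there is no replicate error, no test was possible, and every ratio below compares these 2 libraries and not the conditions. The number of reads per library is unknown. The sum of all summits was 80502410 for wild type and 84057405 for knockdown. Ratios use knockdown summits multiplied by 0.958 to make these sums equal, with a pseudocount of 1 added, on the log2 scale. Positions of dsRNA regions are printed as deposited, and a width is the stop minus the start.

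All 6 genes carried a dsRNA region. The sheets of the 2 libraries are paired by row, so presence in both libraries follows from that pairing. RN7SK (chromosome 6, 52860393 to 52860753 in wild type) reached 1651471 in the wild-type library and 1601602 in the knockdown library. It was the 7th highest of all regions in both libraries and its share of the summed height was 2.05% (wild type) and 1.91% (knockdown). The 6 genes together held 2.31% and 2.15%, so RN7SK made up most of their signal.

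RMRP (chromosome 9, 35657682 to 35658038) reached 89226 in the wild-type library and 64158 in the knockdown library. RPPH1 (chromosome 14, 20811169 to 20811601) had 49300 and 69913. These RNAs changed places between the libraries: RMRP was the higher of the pair in wild type and RPPH1 in knockdown.

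RN7SL2 (chromosome 14, 50329252 to 50329598) reached 36706 in the wild-type library and 35529 in the knockdown library. RN7SL1 (chromosome 14, 50053274 to 50053614) had 34041 and 32367. The 7SL genes stood close together in both libraries, with RN7SL1 at 0.927 of RN7SL2 in wild type and 0.911 in knockdown. BCYRN1 (chromosome 2, 47562446 to 47562777) was far below the others, with 224 and 157. RN7SK was 7373-fold higher than BCYRN1 in wild type and 10201-fold in knockdown.

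**Figure D1:**
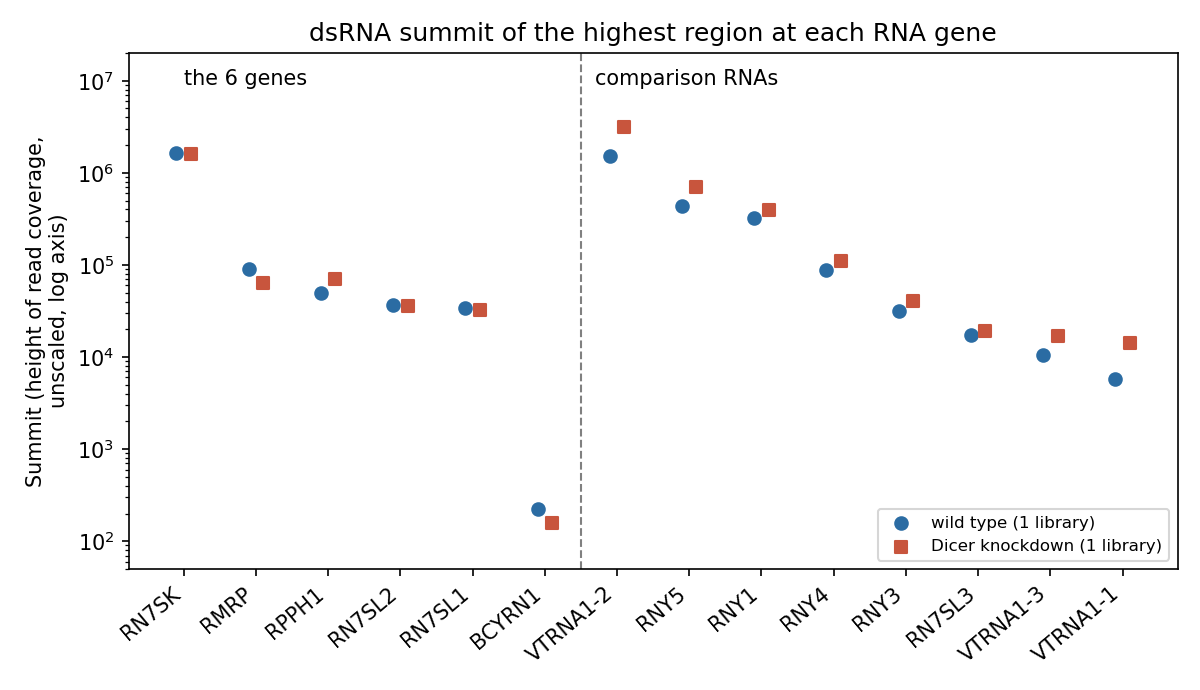
Unscaled summit of the highest dsRNA region at each gene, on a log axis, in 1 wild-type library (circles) and 1 Dicer knockdown library (squares). The 6 genes lie left of the dashed line, ordered by wild-type summit from RN7SK (1651471) to BCYRN1 (224), and 8 other RNAs made by RNA polymerase III lie right of it. There is no error bar because each group has 1 library.

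In wild type the order was RN7SK, RMRP, RPPH1, RN7SL2, RN7SL1 and BCYRN1. The step from RN7SK to RMRP was 18.5-fold, and the step from RN7SL1 to BCYRN1 was 152-fold. The steps between were small: 1.81-fold from RMRP to RPPH1, 1.34-fold from RPPH1 to RN7SL2 and 1.08-fold from RN7SL2 to RN7SL1. Whether neighbours in this order differ beyond the spread between replicates could not be tested. Of the 6, all but BCYRN1 were in the authors' deposited final set of 1003 regions, whose summits all exceed 1500 in each library (0.369% of all regions, and every region that does so).

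The comparison the design implies is knockdown against wild type. None of the 6 genes reached a 2-fold difference, under any of the 4 scalings tried, and none reached 1.5-fold with the main scaling. In the same comparison, 58.0% of the 35876 regions whose 2 summits add to 20 or more differed by 1.5-fold or more, and 35.9% differed by 2-fold or more (5.07% higher and 30.8% lower in knockdown). Among the 427 regions averaging a summit of 10000 or more, where 5 of the 6 genes lie, 26.5% differed by 1.5-fold or more and 8.67% by 2-fold or more (4.92% higher and 3.75% lower). A count of 0 among 5 is near that background and is not a result about these genes.

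RN7SK differed little between the libraries, with a log2 ratio of knockdown to wild type of -0.11, a fold of 0.929. Both 7SL genes gave almost the same ratio, -0.11 for RN7SL2 and -0.14 for RN7SL1. The ratio of 7SK to 7SL height, which needs no scaling, was nearly equal in the libraries: RN7SK was 45.0-fold higher than RN7SL2 in wild type and 45.1-fold in knockdown, and 48.5-fold and 49.5-fold higher than RN7SL1. These 3 genes lay inside the middle range of the 427 high regions, whose median log2 ratio was -0.02 and whose 25th and 75th percentiles were -0.30 and 0.34. Of the 427, 178 had a lower ratio than RN7SK and 248 a higher one.

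The RNAs of the related ribonucleases RNase P and RNase MRP went opposite ways with the main scaling, unscaled and with sums that leave out the top 1% of regions, where RMRP was at -0.05, but not scaled to the median ratio, where RMRP was at 0.01. RPPH1 was 1.36-fold higher in knockdown (log2 ratio 0.44), and RMRP was 1.45-fold lower (log2 ratio -0.54). The height of RPPH1 was 0.553 of that of RMRP in wild type and 1.09 of it in knockdown, a 1.97-fold difference that does not depend on the scaling. Among the 427 high regions, 50 had a lower ratio than RMRP and 89 had a higher ratio than RPPH1. RMRP thus lay below their 25th percentile (-0.30) and RPPH1 above their 75th (0.34), and neither was at the end of the distribution. RMRP lay just below the 10th percentile (-0.52) of the 115 regions with a mean summit of 30000 to below 100000. RPPH1 lay between the 75th (0.26) and the 90th (0.64) percentile of those regions.

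BCYRN1 had the lowest ratio of the 6, -0.57, a fold of 0.673. This is a region of low height, and regions of its level were lower in knockdown as a class: the median log2 ratio of the 2135 regions with a mean summit of 100 to below 300 was -0.24. Of these, 637 had a lower ratio than BCYRN1.

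**Figure D2:**
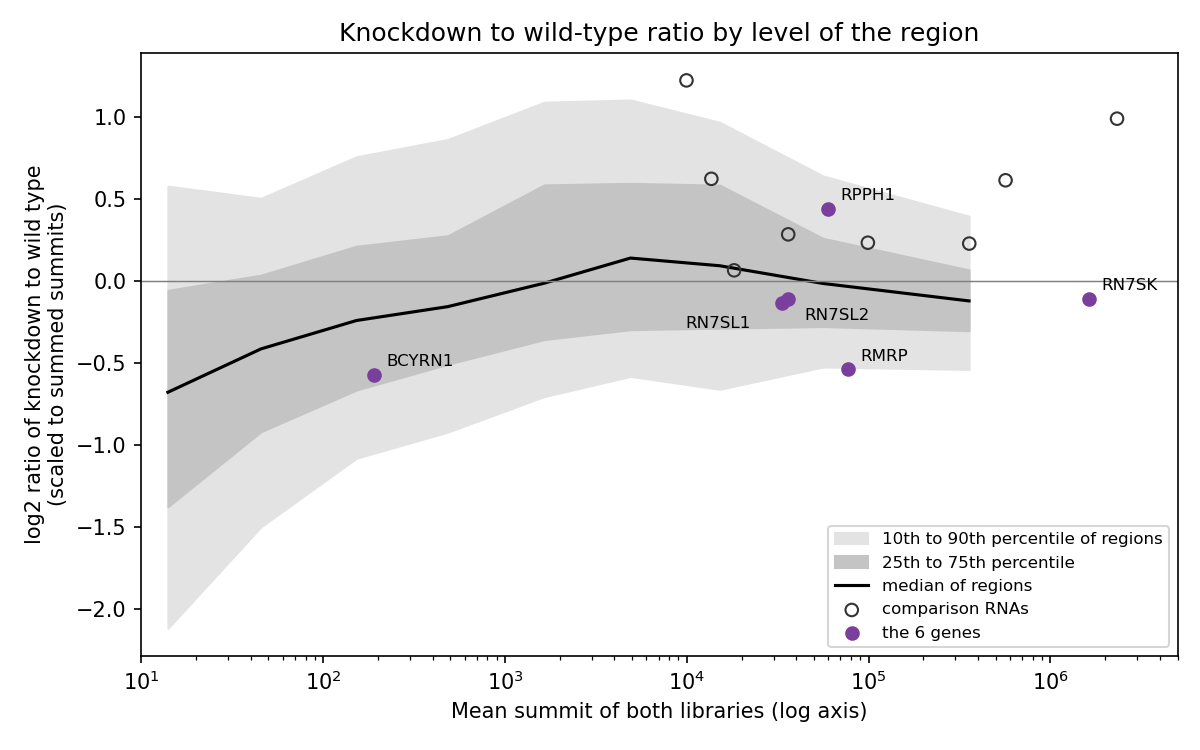
The log2 ratio of knockdown to wild type, scaled to the summed summits, against the mean summit of both libraries on a log axis. The black line is the median of all regions whose 2 summits add to 20 or more in classes of level, the grey bands hold their middle 50% and 80%, filled points are the 6 genes and open points are 8 other RNAs made by RNA polymerase III. RN7SK, RN7SL1 and RN7SL2 sit near the median, RMRP (-0.54) and BCYRN1 (-0.57) sit lower, and RPPH1 (0.44) sits higher. Another scaling shifts all points together, which takes RMRP to 0.01 and BCYRN1 to -0.03 at most.

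Over the 6 genes the median log2 ratio was -0.12, with 1 gene higher and 5 lower in knockdown. The median over all 35876 regions was -0.53, and 26.9% of them were higher in knockdown. Over the 427 high regions the median was -0.02, and 48.7% were higher. The direction of most of the 6 genes rests on the scaling. Unscaled, 1 was higher and 5 were lower, while 55.3% of the 427 high regions were higher. With sums that leave out the top 1% of regions, 4 were higher and 2 lower, beside 86.7% of the high regions and 47.7% of the 35876. Scaled to the median ratio, 5 were higher and 1 lower, beside 88.5% and 49.6%. RPPH1 was higher under all 4 scalings, with log2 ratios of 0.44 to 0.99, and BCYRN1 was lower under all 4, with -0.57 to -0.03. RMRP ran from -0.54 to 0.01 and RN7SK from -0.11 to 0.44.

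Other short RNAs made by RNA polymerase III were set beside these genes. They were the vault RNAs VTRNA1-1, VTRNA1-2 and VTRNA1-3, the Y RNAs RNY1, RNY3, RNY4 and RNY5, and RN7SL3, a further copy of 7SL. Vault RNAs are part of the vault particle, and Y RNAs bind the Ro60 protein. All 8 were higher in the knockdown library with the main scaling, under which 48.7% of the 427 high regions were, and their median log2 ratio was 0.45. All 8 were also higher under the other 3 scalings, under which 55.3% to 88.5% of the high regions were. The 3 vault RNAs had log2 ratios of 0.62 to 1.23 and the 4 Y RNAs 0.23 to 0.62. RN7SK, RN7SL1, RN7SL2, RMRP and BCYRN1 all lay below the lowest of these 7 ratios. RPPH1, at 0.44, lay above RNY1, RNY3 and RNY4 and below RNY5. This difference between the RNA groups was not tested, since there is 1 library a group. RNU6-1, RNU6ATAC, VTRNA2-1 and the genes of the proteins that bind these RNAs were not placed in hg19 and are not analysed here.

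**Figure D3:**
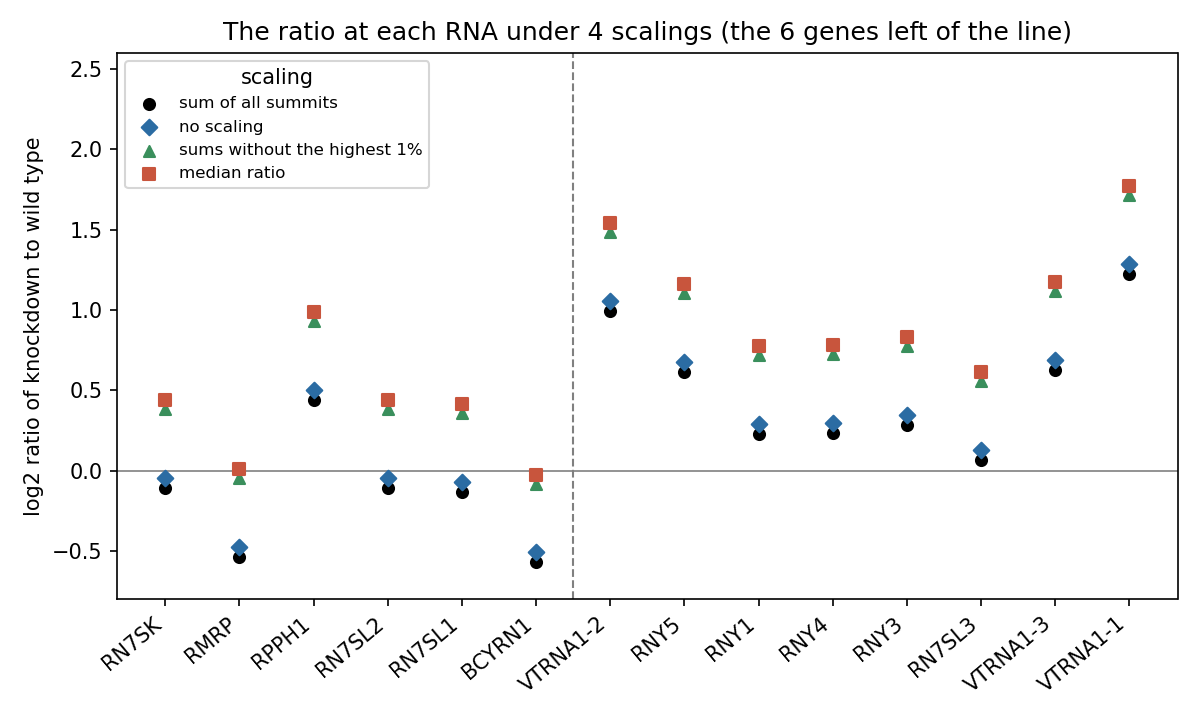
The log2 ratio of knockdown to wild type at each gene under 4 scalings of the knockdown summits, with the 6 genes left of the dashed line and 8 comparison RNAs right of it. A change of scaling moves all points up or down together, by up to 0.55. RN7SK, RN7SL1 and RN7SL2 cross 0, and RMRP barely does, reaching 0.01 by the median ratio. RPPH1 and all comparison RNAs stay above 0, and BCYRN1 stays below it.

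The 7SL genes are near-identical copies, so a read of one can have been counted at another, and RN7SL1 and RN7SL2 are not separate measurements. The sources used here do not say how such reads were treated. With RN7SL3 (chromosome 14, 50320264 to 50320652, summits of 17412 and 19025) the 3 copies summed to 88159 (wild type) and 86921 (knockdown), a log2 ratio of -0.08. RN7SL1 held 38.6% of that sum in wild type and 37.2% in knockdown. RN7SL2 held 41.6% and 40.9%, and RN7SL3 held 19.8% and 21.9%. The split between the copies was thus close to the same in both libraries. Counting 7SL once, through RN7SL1, gave a median log2 ratio of -0.14 over 5 genes. In RefSeq, which is of another build, RN7SL1 overlaps the ribosomal protein gene RPS29, RN7SL2 overlaps a long noncoding RNA gene, and BCYRN1 overlaps the long noncoding RNA gene EPCAM-DT. Strand and overlap in hg19 were not checked. Where the genes do overlap there, a summit cannot tell reads of the overlapping gene from those of the short RNA.

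A feature the choice of genes did not use is the extent of each region. Every one of the 6 regions was wider than the RefSeq length of its RNA, in both libraries. The same held at all 8 comparison RNAs, but these were placed only where a region could hold the whole gene, allowing 10 bp. Their widths therefore cannot show whether this is particular to the 6 genes. RN7SK, a gene of 332 bp, had a region of 360 bp in wild type and 357 bp in knockdown. RN7SL1 and RN7SL2, each of 299 bp, had regions of 340 and 346 bp in wild type and 341 bp each in knockdown. These 3 regions exceeded the RNA by 25 to 47 bp.

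The regions of the ribonuclease RNAs reached further than those 3, but not further than all comparison RNAs. RN7SL3, a 7SL copy of 299 bp, had 388 bp in wild type and 324 bp in knockdown. VTRNA1-3, of 88 bp, had 305 and 306 bp. RMRP, of 270 bp, had 356 bp in wild type and 344 bp in knockdown. RPPH1, of 341 bp, had 432 and 424 bp. Their excess over the RNA was 74 to 91 bp. BCYRN1, of 200 bp, had 331 bp in wild type and 290 bp in knockdown, an excess of 131 and 90 bp. The median width of the 427 high regions was 162 bp in wild type and 164 bp in knockdown.

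**Figure D4:**
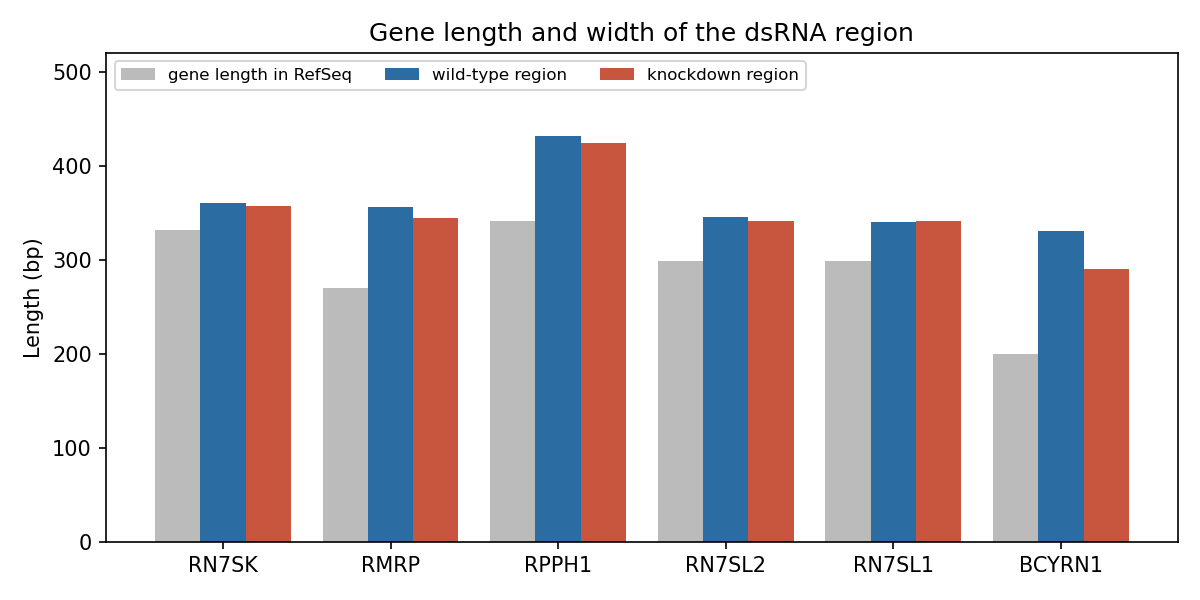
Length of each gene in RefSeq (grey) and width of its highest dsRNA region in wild type (blue) and in knockdown (red), in bp, for the 6 genes. Every region is wider than the gene, by 25 bp at RN7SK in knockdown to 131 bp at BCYRN1 in wild type. The regions of all 8 comparison RNAs, not drawn here, were also wider than their genes, but their placement nearly required this.

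The edges of the regions were nearly the same in the 2 libraries. At RN7SL1 the start was identical and the stop differed by 1 bp. At RN7SK, RN7SL2, RMRP and RPPH1 each edge differed by 8 bp or less. Shifts of this size were usual: over the 427 high regions the median was 4 bp at the start and 3 bp at the stop. RN7SL3, outside the 6, moved more, with a start at 50320264 in wild type and 50320327 in knockdown. At BCYRN1 the knockdown region started 7 bp later and stopped 34 bp earlier. The knockdown region was narrower in 5 of the 6, by 3 to 41 bp, and 1 bp wider at RN7SL1. In the background, 58.6% of regions whose 2 summits add to 20 or more and 49.9% of the 427 high regions were narrower in knockdown. In percent, the knockdown width was 96.6% to 100.3% of the wild-type width at the 5 high regions and 87.6% at BCYRN1. The median over the 427 high regions was 100%, and over the 2135 regions at the level of BCYRN1 it was 99.3%. How an edge was set is not stated in the sources used here, so it may depend on height and depth as well as on the RNA.

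The last comparison set these genes against the DICER ChIP-seq peaks. RMRP was the only one of the 6 with a peak in its window. The peak lay at chromosome 9, 35657673 to 35658032 (counting from 1), 360 bp wide. It almost coincided with the dsRNA region: it began 9 bp before the wild-type region and ended 6 bp before its stop. The peak covered 98.3% of the wild-type region and 99.4% of the knockdown region. Its score, which is the authors' own, was 117 and ranked 76th of 119, below the median score of 127.0. A peak lay at 0.24% of regions whose 2 summits add to 20 or more, at 8.67% of the 427 high regions and at 11.1% of the 171 regions with a mean summit of 30000 to below 300000. Of the 6 genes, 5 are among the 427 high regions, RN7SK standing above the narrower class, and 1 of them had a peak. A count of 1 is too small to set apart from these shares.

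**Figure D5:**
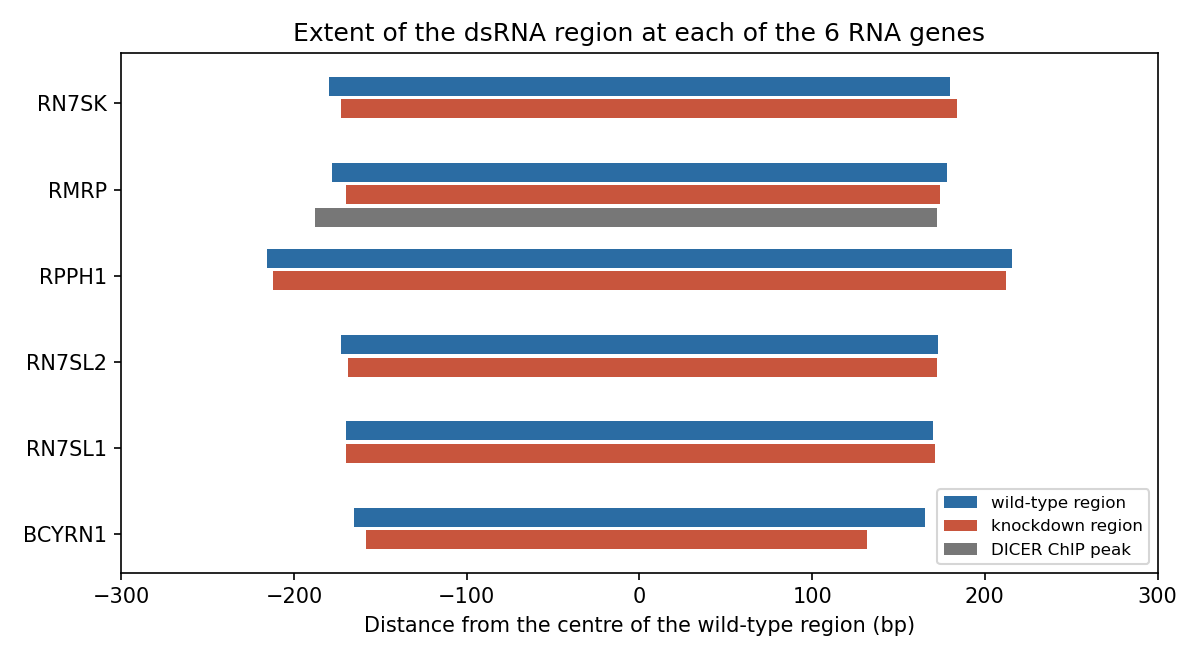
Extent of the highest dsRNA region at each of the 6 genes in wild type (blue) and knockdown (red), as distance in bp from the centre of the wild-type region. The DICER peak (grey) at RMRP spans 360 bp and matches the dsRNA region to within 9 bp of each wild-type edge, and the other genes have no peak.

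At the other 5 genes the nearest peak was distant. It was 54.5 kb from the window of BCYRN1 and 282 kb from that of RPPH1, and it was more than 5 Mb away from RN7SK and both 7SL genes. RN7SK, which had the highest dsRNA summit of the 6, had no listed DICER peak. The listed peaks score 100 or more, so lower-scoring peaks are not in the list, and no input library was analysed here. RMRP, the gene with a peak, also had the lowest ratio of the 5 high genes (-0.54), which is 1 gene and was not tested.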

How the data were processed

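The DICER ChIP-seq library and 2 dsRNA libraries were grouped by their labels, 1 library a group. All positions are in hg19, per the submitters' processing notes, which list Bowtie 0.12.7 and MACS 1.4 for the ChIP library and bcl2fastq 1.8.4 and BWA 0.7 for dsRNA. The authors deposited a score per peak and, for each dsRNA region, start, stop and a coverage signal (the summit). The sources used here do not say how regions were called. The dsRNA files attached to both samples were identical, so 1 copy of each sheet was used, paired by row.

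Scaling, ratios, overlaps and background shares were computed with Python 3.11.15, pandas 2.3.3 and numpy 2.4.6, and the code was tested on simulated data. Overlap means 1 bp or more. The windows and lists were chosen with earlier results of these data known. Named were all 6 genes and those comparison RNAs that could be placed. Vault, Y and 7SL sets were placed by matching the spacing of their genes in RefSeq (GRCh38.p14, whose coordinates are not printed) to regions averaging a summit of at least 100, allowing 10 bp. Each set had 1 placement. No sequence of these RNAs was used here.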

Additional observations from a re-analysis of the deposited data

How the results depend on the processing

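Scaling is the main limit, because library depth is unknown and the summed height is held by few regions. The median log2 ratio over the 6 genes (-0.12) was -0.060 unscaled, 0.43 by the median ratio and 0.37 by sums that leave out the top 1% of regions. Pseudocounts of 0.5 and 10, summing all regions of a gene, and summit times width left it between -0.13 and -0.12. The median of the background regions, those with a combined summit of at least 20, (-0.53) was -0.47 unscaled, 0 by the median ratio, as that scaling sets it, and -0.054 with the reduced sums. With other filters it was -0.61 at 10 or more, -0.32 at 50 or more, -0.25 with no filter and -0.017 at a mean summit of 10000 or more. The number of genes past 2-fold stayed at 0 under the 3 other scalings. Of the 35876 background regions, 2081 to 4601 were 2-fold higher and 6340 to 10760 were 2-fold lower under those scalings. By summit, 0 genes passed 1.5-fold with the main scaling. By summit times width, RMRP (-0.59) and BCYRN1 (-0.77) did pass it. RPPH1 was 1.99-fold higher by the median ratio and 1.91-fold with the reduced sums, so it passes 1.5-fold there. Requiring 50% of a region inside the window left 7 of 8 regions. The count of 1 gene with a DICER peak was unchanged when the peak had to overlap a dsRNA region or to lie within 1 kb, and was 0 among peaks at or above the median score. The share of regions narrower in knockdown was 58.6%, and 49.9% at a mean summit of 10000 or more. The background of high regions was chosen after seeing the data. No paired analysis was possible because there is only 1 library per group.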

Other observations

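Regions around these genes were mostly low, as regions are in general. Of all 271645 regions, 35876 had a combined summit of 20 or more. Within 5 kb of the 6 windows there were 37 regions besides the highest of each gene, of which 30 had a combined summit under 20. That count is not a result about these genes. BCYRN1 had no other region at all. The 37 include the lower regions of RMRP and RPPH1, the latter at 20 or more. Of the 7 regions at 20 or more, 4 lay near RN7SL1, 2 near RPPH1 and 1 near RN7SK. The highest of them, near RN7SL1 at chromosome 14, 50050294 to 50050415, reached 3295 in the wild-type library and 3205 in the knockdown library, a log2 ratio of -0.10 against -0.14 at RN7SL1 itself. A region at chromosome 14, 50052654 to 50052776, had 744 and 527 with the same edges in both libraries, and a region at chromosome 14, 50052923 to 50053135, had 173 and 261. No gene name was assigned to these regions.

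Beside RPPH1, a low region at chromosome 14, 20811624 to 20811818, reached 37 in the wild-type library and 6 in the knockdown library, 5.63-fold lower, while RPPH1 itself was 1.36-fold higher. RefSeq places the DNA repair gene PARP2 on the same side of RPPH1. The region overlapped the window of RPPH1 but lay mostly outside it. A region further along, at chromosome 14, 20813107 to 20813311, had 28 and 5. Their log2 ratios were -2.49 and -2.32, and the 10th percentile of the 24559 regions with a mean summit of 10 to below 30 was -2.12. Both were picked with their values in view.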
